A study of Triticum aestivum with 16 samples.

Results

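Fructan exohydrolases are the enzymes that take fructose units off fructan, the polymer in which wheat leaves and stems store much of their soluble carbohydrate. The pair described here is 6-FEH (LOC780575), which acts on levan-type linkages, and 1-FEHw2 (LOC543441), a 1-FEH that acts on inulin-type linkages. They were taken by the gene that the array annotation pairs with each probe set, which makes them 2 of 771 annotated genes, with 3 probe sets for 6-FEH and 1 for 1-FEHw2 of 61290 in the table. A further gene, LOC542773, was set beside 6-FEH through its probe set whose name ends in _a_at.

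Plant fructan exohydrolases belong to the same protein family as cell wall invertases and fructosyltransferases and are related to invertases by descent, although they act on fructan and little or not at all on sucrose. Graminan, the branched fructan of wheat, carries both kinds of linkage, so enzymes of both specificities are needed to break it down completely. In wheat this breakdown is best known from stems, where stored fructan is mobilised while the grain fills.

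Flag leaves were sampled 6 to 8 days after anthesis from 8 recombinant inbred lines of bread wheat (Triticum aestivum) descended from Seri M82 and Babax, all grown under irrigation in one field season (2007). Each line, SB15, SB33, SB53, SB80, SB138, SB146, SB165 or SB189, was represented by 2 field replicates, which gives 16 Affymetrix arrays, and no line was treated. No carbohydrate measurement accompanies the labels used here, and no line is a control, so each line was set against the others. Nothing in the labels says how many plants went into 1 sample. A leaf is a mixture of tissues, so fewer cells of a type and less RNA per cell cannot be told apart.

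The deposited values are log2 signals with a floor at 2.25 and a maximum of 16.67. A probe set is a group of short probes for one transcript, and a difference of 1 on this scale is a doubling of signal. As a check of the tissue, 14 of 33 probe sets of the leaf genes rbcl, PsbO, PsbP and petC had a median above 4 (log2) over arrays. The brightest of rbcl, PsbO, PsbP and petC were at 16.57, 14.82, 14.98 and 15.32. Many others of rbcl and the second of petC lay near the floor. Among 22 probe sets of grain storage proteins 1 had a median above 4, that of the avenin-like LOC100125692 at 11.58. The raftin genes, which encode anther proteins, lay near the floor on all 4 of their probe sets, whereas profilin (LOC543315), also named in that list, gave 13.36 and 14.31. Arrays of 1 line correlated at 0.9945 to 0.9970 over the probe sets at or above the median level.

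6-FEH differed widely between the lines, and 1-FEHw2 did not pass the test over the lines. Of the 3 probe sets of 6-FEH, the one whose name ends in _x_at was the brightest, the one ending in _a_at had the widest range, and the third, which starts with TaAffx, lay near the floor. They are called the brighter, the wider-ranging and the third probe set here. The ending _x_at marks a probe set in which some probes can also match other transcripts, and _a_at one whose probes match several transcript forms of the same gene. Whether such probes tell apart the copies of a gene on the subgenomes of hexaploid wheat was not tested, and neither was cross-hybridisation.

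**Figure D1:**
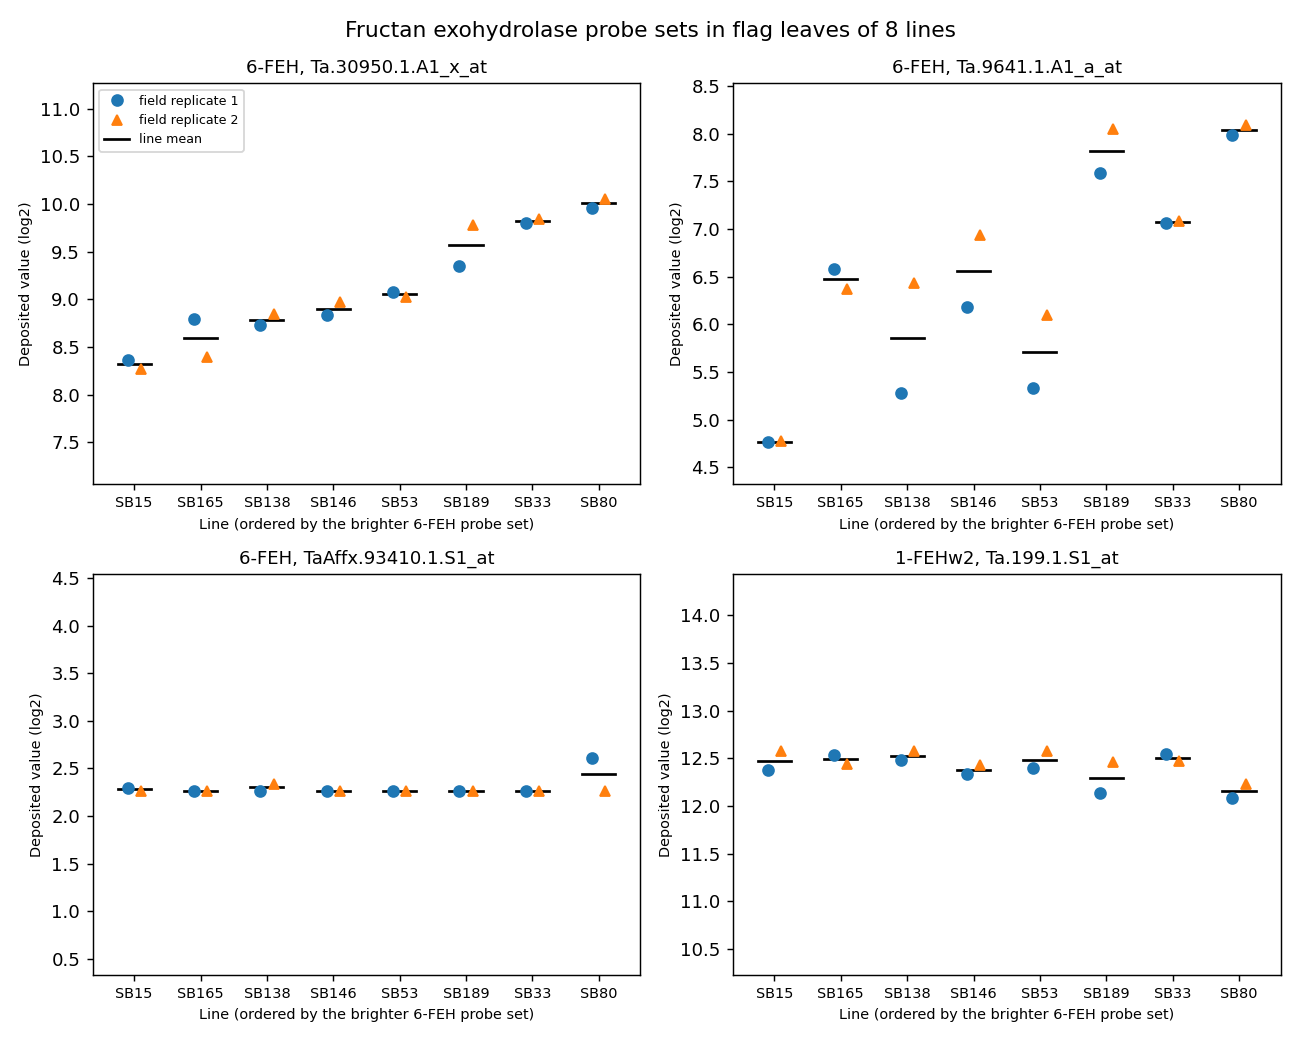
Deposited values (log2, vertical axes, each spanning the same number of log2 units) of the 3 probe sets of 6-FEH and the probe set of 1-FEHw2 in 8 lines, ordered by the brighter 6-FEH probe set. Circles and triangles are field replicates 1 and 2 and bars are line means. SB15 is lowest and SB80 highest on both responsive 6-FEH probe sets, and 1-FEHw2 stays between 12.09 and 12.58 on every array.

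On the brighter probe set, 6-FEH was highest in SB80, at 9.96 in field replicate 1 and 10.06 in field replicate 2 (log2). SB33 followed with 9.80 and 9.85, and SB189 with 9.35 and 9.79. These 6 arrays lay above the other 10, whose highest value was 9.08.

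Of the other 5 lines, SB53 had 9.08 and 9.03, and SB146 had 8.83 and 8.97. SB138 had 8.73 and 8.85, and SB165 had 8.80 and 8.40. SB15 was lowest, with 8.37 and 8.27, and both of its arrays lay below every array of the other lines.

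From SB15 (8.32 ± 0.066, SD, n = 2) to SB80 (10.01 ± 0.069) the line means spanned 1.69 log2 units, or 3.22-fold, against a pooled SD within lines of 0.16. The intraclass correlation, the share of variance that lay between lines, was 0.93. Over all 8 lines this difference passed a moderated F test (limma adjusted p = 0.00273), a call made for 3.5% of the 61115 probe sets tested. In an exact test over the 2027025 ways to pair the 16 arrays, 32 pairings brought the arrays of a pair as close together as the lines did (one-sided exact p = 1.58e-05, 7.28e-05 after adjustment over 5 such tests).

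The order of the lines on the brighter probe set was SB80, SB33, SB189, SB53, SB146, SB138, SB165 and SB15. No line could be separated from its neighbour in this order: none of the 7 neighbouring pairs passed, and the widest gap, of SB189 over SB53, was 0.51 (95% interval 0.16 to 0.87, limma adjusted p = 0.299). Lines farther apart did separate. The arrays did not overlap in 26 of 28 pairs, against 19.7% of pairs over all probe sets, and 11 of 28 pairs passed the limma test, against 1.13% over all probe sets and pairs. The 11 pairs all set SB80, SB33 or SB189 above one of the other 5 lines, and none lay within either of these sets.

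SB80 exceeded SB15 by 1.69 (95% interval 1.33 to 2.04, limma adjusted p = 0.00141), SB165 by 1.41, SB138 by 1.22, SB146 by 1.10 and SB53 by 0.95. SB33 exceeded SB15 by 1.50, SB165 by 1.23, SB138 by 1.03 and SB146 by 0.92. SB189 exceeded SB15 by 1.25 and SB165 by 0.97. SB80 and SB33 themselves differed by 0.19, with a 95% interval of -0.17 to 0.54, so a difference of up to 0.54 between them remains possible.

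On the wider-ranging probe set, 6-FEH was again highest in SB80 (7.98 and 8.09) and lowest in SB15 (4.76 and 4.78). SB189 had 7.58 and 8.05, which overlapped SB80, and SB33 had 7.06 and 7.08. The arrays of these 3 lines lay above all others, as they did on the brighter probe set.

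The middle of the order was less certain on this probe set, because the replicates of several lines lay far apart. SB138 had 5.28 in replicate 1 and 6.43 in replicate 2, a difference of 1.15. SB53 had 5.33 and 6.09, and SB146 had 6.18 and 6.94. The replicates of SB15, SB33 and SB80 differed by 0.012, 0.018 and 0.105.

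The line means spanned 3.27 log2 units, or 9.62-fold, with a pooled SD within lines of 0.42 (limma adjusted p = 0.0198, exact p over pairings = 0.000967). Here 5 of 28 pairs passed, against 1.13% over all probe sets and pairs. All 5 were among the 11 pairs of the brighter probe set. SB80 exceeded SB15 by 3.27 (95% interval 2.34 to 4.19, limma adjusted p = 0.00713), SB53 by 2.33 and SB138 by 2.18, the last with a limma adjusted p of 0.0499. SB189 exceeded SB15 by 3.04 and SB33 exceeded it by 2.30. The line effect no longer passed without replicate 1 of SB15 (limma adjusted p = 0.0591), without replicate 2 of SB15 (limma adjusted p = 0.0502) or without both arrays of SB80 (limma adjusted p = 0.0858).

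Both responsive probe sets placed SB80, SB33 and SB189 at the top and SB15 at the bottom, but they disagreed on the order of the lines between. SB53 was the fourth of 8 on the brighter probe set and the seventh on the other, where it had 5.33 and 6.09. SB165 was the seventh on the brighter probe set and the fifth on the other, where it had 6.58 and 6.36. Over the 8 line means the probe sets correlated at r = 0.86 (exact permutation p = 0.00712, adjusted p = 0.0302 over 9 relations) and rho = 0.81 (exact permutation p = 0.0218, adjusted p = 0.0827). Without SB15 and SB80, the farthest from the median, r was 0.68 (exact permutation p = 0.14) and the relation no longer passed. Fewer lines make a test harder to pass, so whether the call rested on SB15 and SB80 cannot be told from it. The difference between the probe sets ranged over 1.80 between SB15 and SB189. This difference did not pass over the lines (limma adjusted p = 0.12), whereas the exact test over pairings gave p = 0.015 (0.0188 adjusted over 5 tests). Without replicate 1 or replicate 2 of SB138, the limma adjusted p was 0.0407 and 0.0337.

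The third probe set carried almost no signal. It was within 0.1 of the floor on 15 of 16 arrays. The exception was replicate 1 of SB80, at 2.61, while replicate 2 of SB80 was at 2.26. No order of the lines can be read from it (limma adjusted p = 0.872), and without replicate 2 of SB80 the call rested on that 1 array (limma adjusted p = 0.0025).

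1-FEHw2 kept a nearly level signal over the lines. In SB138 it was 12.48 and 12.58, in SB33 12.55 and 12.47, in SB165 12.54 and 12.45 and in SB53 12.40 and 12.57. In SB15 it was 12.37 and 12.57 and in SB146 12.34 and 12.43. The lowest means were those of SB189, at 12.14 and 12.46, and of SB80, at 12.09 and 12.23.

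The line means spanned 0.37 log2 units, or 1.30-fold, with a pooled SD within lines of 0.12, and the line effect did not pass (limma adjusted p = 0.597, unadjusted p = 0.101, exact p over pairings = 0.132). By limma 0 of 28 pairs passed, and 5 had an unadjusted p under 0.05. The arrays did not overlap in 11 of 28 pairs, against 19.7% of pairs over all probe sets. The widest, of SB138 over SB80, was 0.37 with a 95% interval of 0.11 to 0.63 and a limma adjusted p of 0.309. Differences of that size between lines are therefore not excluded at 2 arrays per line.

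Each line was also set against the mean of the other 7. On the brighter probe set 6-FEH was higher by 1.00 in SB80 (SE 0.12, limma adjusted p = 0.00325), where 1.02% of all probe sets were called higher, and by 0.79 in SB33 (limma adjusted p = 0.027), where 0.383% were. It differed by -0.93 in SB15 (limma adjusted p = 0.00929), with 0.414% of all probe sets called lower there, and by -0.61 in SB165 (limma adjusted p = 0.0409), with 0.535% called lower. The value in SB189 was 0.50 (95% interval 0.23 to 0.77, limma adjusted p = 0.115), and it passed without replicate 1 of SB165 (limma adjusted p = 0.0457) or of SB189 (limma adjusted p = 0.0171) and without dim probe sets (limma adjusted p = 0.0404). The calls of SB80 and SB15 held without any 1 array. That of SB33 did not hold without either of its arrays, with limma adjusted p-values of 0.0812 and 0.0916, and that of SB165 was lost without any of 7 arrays, with a limma adjusted p of 0.278 without its own replicate 2. Quantile normalization ended both (limma adjusted p = 0.0502 for SB33 and 0.0516 for SB165), and SB165 was also lost with a trended and robust prior (limma adjusted p = 0.0531) and without the line SB80 (limma adjusted p = 0.18).

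The wider-ranging probe set was called in SB80, by 1.72 (limma adjusted p = 0.0237), and in SB15, by -2.02 (limma adjusted p = 0.0222). In SB189 it was higher by 1.46 without passing (limma adjusted p = 0.0751), and it passed there without replicate 1 or 2 of SB138 or replicate 2 of SB146, with limma adjusted p-values of 0.025, 0.0161 and 0.046. It also passed without dim probe sets (limma adjusted p = 0.0215) and after array medians were subtracted (limma adjusted p = 0.0121). Its calls in SB80 and SB15 ended without either array of the line itself. That of SB80 also ended with array weights (limma adjusted p = 0.0591), and that of SB15 without the line SB80 (limma adjusted p = 0.0789). For 1-FEHw2 no line passed, and the largest value was -0.30 in SB80 (95% interval -0.49 to -0.098, limma adjusted p = 0.165).

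**Figure D2:**
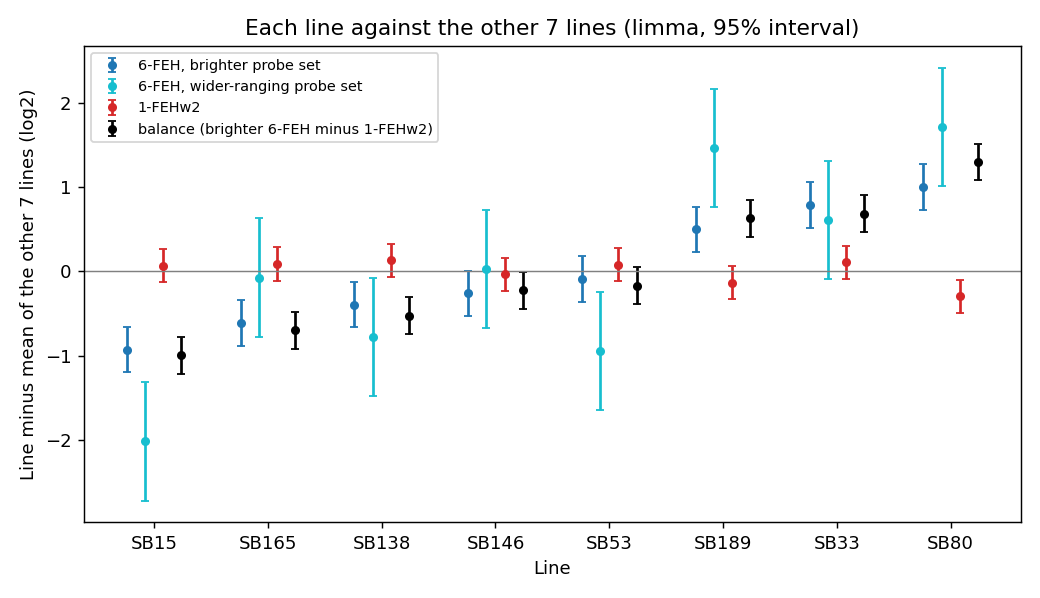
Difference of each line from the mean of the other 7 lines (log2, vertical axis) for both responsive 6-FEH probe sets, 1-FEHw2 and their balance, with 95% intervals from limma. The 6-FEH estimates on the brighter probe set run from -0.93 in SB15 to 1.00 in SB80, while those of 1-FEHw2 lie between -0.30 and 0.13.

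The balance of both enzymes was taken within each array, as the log2 value of the brighter 6-FEH probe set minus that of 1-FEHw2. Probe sets differ in how brightly they report a transcript, so the size of this difference says nothing about which enzyme is more abundant, and only its change from line to line was compared. It was least negative in SB80, at -2.13 and -2.17, and most negative in SB15, at -4.01 and -4.30. SB33 had -2.75 and -2.62 and SB189 had -2.79 and -2.67.

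The other lines lay between these and SB15. SB53 had -3.32 and -3.55, SB146 had -3.51 and -3.45, and SB138 had -3.76 and -3.73. SB165 had -3.74 and -4.05, which overlapped SB138 and SB15.

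The balance moved toward 6-FEH by 2.01 log2 units, or 4.01-fold, from SB15 to SB80. Between these lines 6-FEH itself rose by 1.69, and 1-FEHw2 was lower in SB80 by 0.32 without passing (limma adjusted p = 0.472). Over the 8 line means the 2 enzymes correlated at r = -0.62 (exact permutation p = 0.101) and rho = -0.38 (exact permutation p = 0.36). Without SB80 and SB189 r was 0.17. The pooled SD of the balance within lines was 0.13, against 0.16 for 6-FEH alone, and both probe sets moved in the same direction between the replicates of 5 of 8 lines. The balance differed between lines (limma adjusted p = 0.000372, exact p over pairings = 2.91e-05), and this held without any 1 array, with a highest limma adjusted p of 0.00109. With the wider-ranging probe set in place of the brighter one the balance ranged over 3.58 (limma adjusted p = 0.00529). In that form 9 of 28 pairs passed, and 0 of the 7 neighbouring pairs. Against the other 7 lines it was called in SB80 (2.01, limma adjusted p = 0.00529), SB189 (1.59, 0.0259) and SB15 (-2.08, 0.00875). It was not called in SB33 (0.50, limma adjusted p = 0.928), SB138 (-0.91, 0.25) or SB165 (-0.16). The calls given next are those with the brighter probe set.

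In 16 of 28 pairs the balance differed between the lines, 5 more than for 6-FEH itself, whose 11 pairs were all among the 16. The added pairs were SB33 over SB53, SB189 over SB53, SB189 over SB138, SB189 over SB146, and SB53 over SB15. The balance holds the 6-FEH values, so the overlap of 11 pairs is in part built in. For single probe sets 1.13% of all probe sets and pairs passed, and no such share was computed for either form of the balance. SB189 over SB53, by 0.70 (limma adjusted p = 0.0438), was the only neighbouring pair of the order to pass. Against the other 7 lines, SB80 (1.30, limma adjusted p = 0.000244), SB33 (0.68, limma adjusted p = 0.0195) and SB189 (0.63, limma adjusted p = 0.0176, with 0.646% of all probe sets called higher there) were shifted toward 6-FEH. SB15 (-0.99, limma adjusted p = 0.00236), SB165 (-0.70, limma adjusted p = 0.00978) and SB138 (-0.52, limma adjusted p = 0.0488, with 0.424% called lower there) were shifted the other way. The call of SB138 was lost without any of 7 of the 16 arrays, with a limma adjusted p of 0.135 and 0.152 without its own arrays. It was also lost under quantile normalization (limma adjusted p = 0.0654), a trended and robust prior (0.0703) and array weights (0.0626), and without the line SB80 (0.311). The call of SB33 ended without its replicate 2 (limma adjusted p = 0.0816), that of SB165 without its replicate 2 (0.0522) or without the line SB80 (0.0704), and that of SB189 without its replicate 2 (0.107) or with array weights (0.0553).

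**Figure D3:**
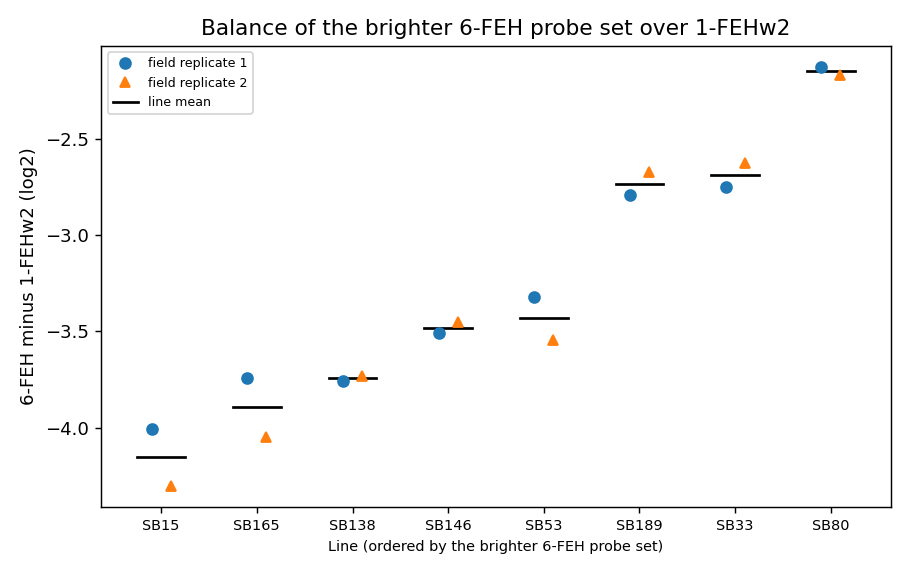
Brighter 6-FEH probe set minus 1-FEHw2 within each array (log2, vertical axis) in 8 lines. Circles and triangles are field replicates 1 and 2 and bars are line means. SB80 stands at -2.15, SB33 at -2.69 and SB189 at -2.73, and the other lines between -3.43 and -4.15.

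The other gene set beside 6-FEH was LOC542773. The reference tables give it no name beyond the locus number, so no function is assigned to it here. Its _a_at probe set had 10.65 and 11.59 in SB189, 10.68 and 11.15 in SB80, and 10.24 and 10.50 in SB33. These 3 lines were also the highest for 6-FEH.

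Next came SB138, with 9.28 and 10.03, and SB53, with 8.94 and 8.95. SB15 had 8.14 and 8.46, SB146 had 8.11 and 8.28, and SB165 had 8.31 and 7.50. The lowest line was thus SB165 for LOC542773 and SB15 for 6-FEH.

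Over the 8 line means the brighter 6-FEH probe set and LOC542773 correlated at r = 0.86 (two-sided exact permutation p = 0.0101) and rho = 0.76 (two-sided exact permutation p = 0.0368). After adjustment over the 9 relations computed, the permutation p-values were 0.0302 for r and 0.0827 for rho. Both probe sets had been named with earlier results known, so these values are no independent evidence. The correlation was 0.86 within field replicate 1 and 0.87 within field replicate 2, and between 0.82 and 0.91 without any 1 line. Without SB189 and SB80, the lines farthest from the median of LOC542773, r was 0.78 over 6 lines (exact permutation p = 0.0514). The relation then no longer passed. A test over 6 lines passes less easily, so whether the call rested on these lines cannot be told from it. Without any 1 line the relation passed in all 8 runs (exact permutation p from 0.0107 to 0.0313).

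6-FEH rose by 0.41 (SE 0.097) for each unit of LOC542773 on the log2 scale. The lines departed from this slope by up to 0.44: SB138 lay below it by 0.44 (residual -0.44) and SB15 by 0.35 (residual -0.35), and SB33 lay above it by 0.30. With the second probe set of LOC542773, whose name ends in _at alone, r was 0.81 (exact permutation p = 0.0228, adjusted 0.041). With the wider-ranging probe set for 6-FEH, r was 0.74 (exact permutation p = 0.0425, adjusted 0.0637) and fell to 0.34 without SB189 and SB80. For 1-FEHw2 and LOC542773, r was -0.55 (exact permutation p = 0.149).

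The same probe sets were also compared by the difference between the field replicates of a line, which does not depend on the line means. Where LOC542773 was higher in replicate 2, as in SB189 by 0.94, 6-FEH was higher there too, by 0.44. In SB165, where LOC542773 was lower in replicate 2 (-0.81), 6-FEH was lower as well (-0.40). The signs matched in 6 of 8 lines, all but SB15 and SB53, and the differences correlated at r = 0.91 (exact permutation p = 0.00503). SB189 and SB165 had the largest 6-FEH differences. In every other line the 6-FEH difference lay between -0.093 (SB15) and 0.14 (SB146). In SB138 LOC542773 differed by 0.75 and 6-FEH by 0.12. No r was computed without SB189 and SB165, so how far it rested on them is not known. With the wider-ranging probe set for 6-FEH, r was 0.49 (exact permutation p = 0.225), with 8 of 8 signs alike. The p-values of the replicate differences were not adjusted. For 1-FEHw2 and LOC542773 the differences correlated at 0.68 (exact permutation p = 0.0595) with 7 of 8 signs alike, so replicate differences in one direction were not seen for 6-FEH alone.

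**Figure D4:**
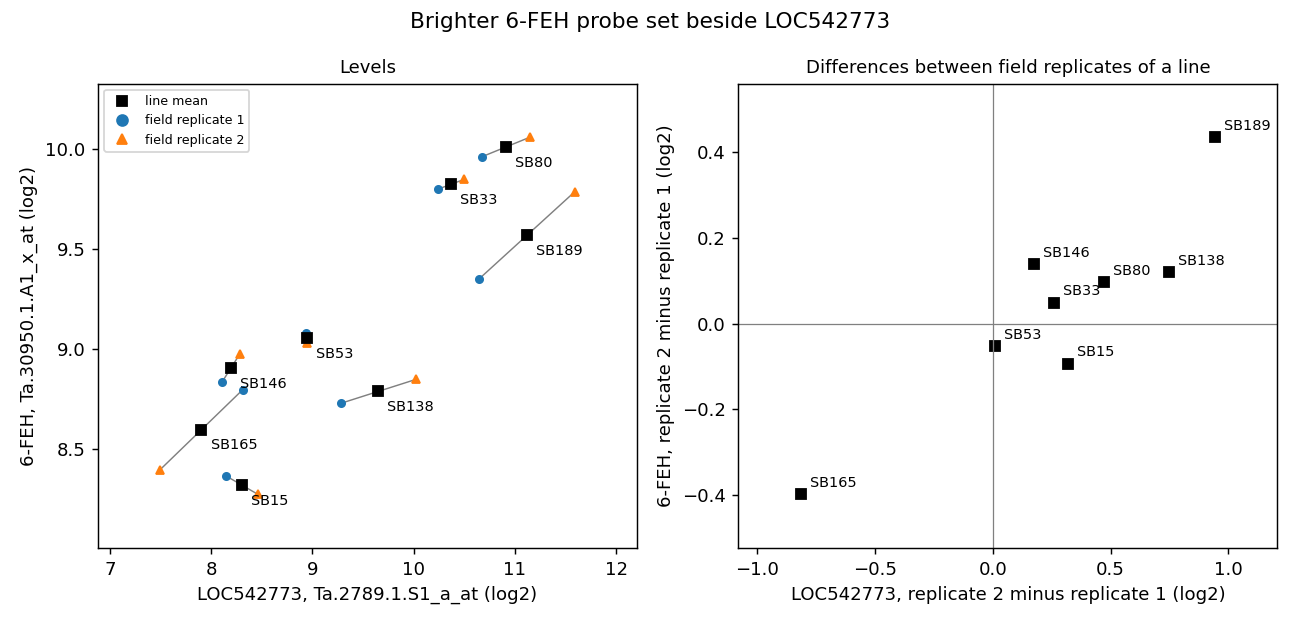
Left, the brighter 6-FEH probe set (log2, vertical axis) against LOC542773 (log2, horizontal axis), with squares for line means and circles and triangles for field replicates 1 and 2 joined within a line. Right, the difference of replicate 2 minus replicate 1 of each line for both probe sets, which correlates at 0.91, with SB189 and SB165 at the ends.

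The signal of the poly-A spike controls moved with these results. The poly-A spikes are RNAs added in known amounts before labelling, and their mean over 24 probe sets was lowest in SB80 (8.90 and 8.96, log2) and highest in SB165 (10.33 and 10.13). Over the line means the spikes correlated with the brighter 6-FEH probe set at r = -0.78 (exact permutation p = 0.0177, adjusted 0.0399) and rho = -0.67 (exact permutation p = 0.0831), and with LOC542773 at r = -0.84 (exact permutation p = 0.00461, adjusted 0.0302) and rho = -0.90 (exact permutation p = 0.00456, adjusted 0.0411). For 1-FEHw2 r was 0.71 (exact permutation p = 0.0518). Within field replicate 1 the correlation of the spikes with 6-FEH was -0.52 and within field replicate 2 it was -0.93. Without SB80 and SB165, the extremes of the spikes, it was -0.62 over 6 lines (exact permutation p = 0.19) for 6-FEH and -0.82 (exact permutation p = 0.0639) for LOC542773. The replicate differences of the spikes correlated with those of 6-FEH at -0.39 (exact permutation p = 0.323). The 3 prime signal of the sucrose synthase control exceeded its middle signal by 2.25 in SB189 to 2.75 in SB165, with 2.43 in both SB80 and SB15. The hybridisation control probe sets had line means from 10.04 in SB15 to 11.09 in SB189, with 10.39 in SB80. Their relation to 6-FEH was not computed. The part of labelling, RNA input or RNA quality in the line differences was not tested.

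Other genes of carbohydrate metabolism could be named only where the reference tables give a symbol or synonym. No annotated probe set was found for fructan synthesis, sucrose synthase, sucrose-phosphate synthase or phosphatase, or sugar transport by this search, which says nothing about probe sets that carry only a locus number. LOC543415, whose synonyms include the invertase name IVR1 but also atpA, lay at the floor on all 16 arrays. In starch synthesis, AGP-S (LOC543299), the small subunit of ADP-glucose pyrophosphorylase, ranged over 0.38 around a median of 11.60 (limma adjusted p = 0.608). AGA.1 (LOC543278) ranged over 0.35 on its bright probe set (limma adjusted p = 0.744) and had a second one near the floor. The waxy starch synthase GBSS (LOC543395) was at the floor and the beta-amylase BMY1 (LOC543318) was within 0.1 of it on 14 of 16 arrays. Among these 6 probe sets, 0 had a line effect by limma after adjustment and 0 at an unadjusted p under 0.05. After adjustment 3.5% of all probe sets had one, and 2 of the 4 of the exohydrolases, which were chosen with earlier results known. Only AGP-S and the bright probe set of AGA.1 had a median above 4 (log2). The others had little room to show a line effect, so no contrast with the exohydrolases is drawn. The median range of line means was 0.16 over all tested probe sets, of which 11747 were constant. The probe sets of 6-FEH ranged over 1.69, 3.27 and 0.17, and that of 1-FEHw2 over 0.37.

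The annotated genes most like the brighter 6-FEH probe set were sought among 227 genes whose mean was 4 or more and whose line means spanned 0.5 or more (log2), by Pearson's r over the 8 line means, as a description. All points share the same 16 arrays and their normalization. The highest were LOC543436 (r = 0.87), LOC542880 (0.86), LOC543419 (0.84), LOC543298 (0.82) and LOC542984 (0.82), whose synonym lgul stands for lactoylglutathione lyase, a detoxifying enzyme. LOC543436 ranged over 1.18, from 11.22 in SB138 to 12.40 in SB80, and passed the F test over the lines (limma adjusted p = 0.0439), while the other 4 did not. LOC542773 ranked 7 of 227 by its second probe set, and its _a_at probe set ranked 2 of the 280 probe sets of these genes. Among all 8752 probe sets of that level and range, 39, or 0.446%, followed 6-FEH as closely as that probe set did.

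The genes that ran most against 6-FEH were LOC542883 (r = -0.87), LOC543329 (-0.86), LOC542781 (-0.84), LOC542879 (-0.78) and LOC543053 (-0.75). LOC542883 was lowest in SB80, at 12.65, and highest in SB165, at 13.54, and passed the F test (limma adjusted p = 0.00683), while the other 4 did not.

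For 1-FEHw2 the closest genes were LOC780602 (r = 0.95), TBP1 (0.92), the TATA-binding protein of transcription initiation, and LOC780646 (0.92). LOC780602 and TBP1 had line effects (limma adjusted p = 1.98e-06 and 0.00668) and, like 1-FEHw2, were lowest in SB80 and next lowest in SB189. LOC780602 was at 5.27 in SB80 and 6.17 in SB189, TBP1 at 7.86 and 8.08, and 1-FEHw2 at 12.16 and 12.30. The most opposed were LOC100049047 (-0.93), LOC606370 (-0.91) and LOC606324 (-0.90). Since the line means of 1-FEHw2 themselves did not pass, this order of likeness follows differences within the reach of replicate error.

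Between the field replicates the members did not differ after adjustment. With line as a block, replicate 2 exceeded replicate 1 by 0.38 (SE 0.16) on the wider-ranging 6-FEH probe set (limma adjusted p = 0.847), by 0.11 (SE 0.047) for 1-FEHw2 (limma adjusted p = 0.847) and by 0.037 (SE 0.082) on the brighter 6-FEH probe set (limma adjusted p = 1).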

How the data were processed

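The authors started from total RNA of 16 flag leaf samples, hybridised biotin-labelled material made from it to an Affymetrix wheat array, and deposited log2 values per probe set. The notes of the submitters on processing name both RMA and GCRMA, which correct the background, normalize between arrays and summarise probes; which of them made the table, and in which version, is not given in the sources used here. Lines and replicate numbers came from the labels. Probe sets were named from the platform annotation (1273 with 1 gene, 0 with several) through RefSeq gene identifiers (1272 found). No sequence or genome build of the probes was used here.

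175 controls were left out. The other 61115 probe sets were fitted with limma 3.58.1 (R 4.3.3) as 8 line means with 8 residual degrees of freedom (prior 0.39), with Benjamini-Hochberg adjustment over all probe sets, and, for the 28 pairs of lines, over every probe set and pair at once, at a threshold of 0.05. The balance and the probe set differences were added as 3 rows to a second such fit. Exact permutation tests used Python 3.11.15. The limma and pairing steps were tested on simulated data. Intervals are 95% and unadjusted. Precision is limited by having 2 arrays a line. The design text calls the replicates biological and the labels call them field replicates. The limma and pairing tests therefore weigh line differences against the spread between field replicates of a line. The p-values of the relations come from permuting lines and do not use that spread.

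The members and lists were chosen with earlier results of these data known. Named genes are the members, the carbohydrate lists, and by rule the 5 (for 1-FEHw2, 3) genes most like and most unlike in r, 1 probe set per gene with the highest mean. Lists were searched in symbols and synonyms, as no descriptions were used. Alternatives covered dim probe sets, quantile normalization, array medians, the prior, array weights, the replicate block and left-out arrays or lines. The main fit did not pair the samples by replicate number, and the replicate block was run as an alternative. Replicate differences correlated above 0.1 in 12 of 28 pairs of lines (median 0.088, lowest -0.18, highest 0.33). Whether samples with the same replicate number belong together in the field was not tested.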

Additional observations from a re-analysis of the deposited data

How the results depend on the processing

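The line effect of the brighter 6-FEH probe set and that of the balance passed in every setting run, and 1-FEHw2 passed in none. With 1 array left out, limma adjusted p-values ran from 0.000632 to 0.00769 for the brighter probe set, from 0.00488 to 0.0591 for the wider-ranging one, from 0.0025 to 0.969 for the third, from 0.224 to 0.951 for 1-FEHw2, from 0.000202 to 0.00109 for the balance and from 0.0337 to 0.254 for the difference between both 6-FEH probe sets. The relation to LOC542773 ran from r = 0.843 to 0.884. The brighter probe set then differed from the other lines in 2 to 5 lines, against 4 with all arrays, and in 9 to 15 pairs, against 11. Without SB80 these counts were 2 and 4. SB80 was itself 1 of the 4 lines and in 5 of the 11 pairs, and the cause of the further losses was not tested. Without SB80 the wider-ranging probe set gave an adjusted p of 0.0858. Quantile normalization and the field replicate block each left 2 lines, SB80 and SB15; the cause was not tested. With the replicate block the limma adjusted p of the brighter probe set was 0.0083 and 9 pairs passed. Under the block the calls of SB33 (0.0534) and SB165 (0.0643) on the brighter probe set and of SB138 in the balance (0.0636) were lost, and SB189 passed on the wider-ranging one (0.0417). The difference between both 6-FEH probe sets passed without dim probe sets (0.0318) and after array medians were subtracted (0.00823); the cause was not tested. The relation without its 2 farthest lines gave 0.785. The third probe set was not fitted without dim probe sets. Leaving out constant probe sets and using the second probe set of LOC542773 were chosen after seeing the data. The first raised the pairs on the brighter probe set from 11 to 13 and moved no line effect or line call given here across the threshold, and the second gave r = 0.806. Signal over background limits the third probe set, and 2 arrays per line limit all others.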
